A study of Mus musculus with 13 samples.

Results

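The antioxidant response genes followed here were Hmox1, Nqo1, Gclc, Gclm, Srxn1, Txnrd1, Slc7a11, Sod1, Sod2 and Nfe2l2, taken by symbol from both count tables of a mouse study of Nurr1 and Foxa2 gene delivery. All 10 were present, as 10 of 23238 symbols in the tissue table and 10 of 24542 in the culture table. The tissue libraries came from the hippocampus of 3xTg mice, an Alzheimer disease model with a mutant presenilin knock-in and Thy1-driven transgenes for mutant forms of human tau and the amyloid precursor. In 4 of them adeno-associated virus 9 (AAV9) had delivered Nurr1 (gene symbol Nr4a2) and Foxa2, together written N+F, and in 3 it was a control AAV9; all 7 tissue libraries are also labelled with amyloid beta as treatment, and no age is given. The culture libraries were hippocampal and cortical glia of postnatal day 1 ICR pups. In each region 1 library had N+F lentivirus with amyloid beta, 1 had control lentivirus with amyloid beta (the amyloid beta control), and 1 had control lentivirus without amyloid beta (called untreated). No culture group had a replicate.

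Nfe2l2 encodes NRF2, the transcription factor that drives most of the other genes in this set. KEAP1 holds NRF2 in the cytoplasm and hands it to a CUL3 ubiquitin ligase; oxidants and electrophiles modify KEAP1, and NRF2 then accumulates, pairs with small MAF proteins and binds antioxidant response elements. In brain this response is known to be strongest in astrocytes, which export glutathione precursors to neurons. Sod1 and Sod2, the cytosolic and mitochondrial superoxide dismutases, are less dependent on NRF2, and Sod2 is also a well known target of NF-kB.

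The stretches before the start sites of Srxn1, Gclm and Nfe2l2 are shown because these members differed between the culture conditions and carry letters resembling motifs bound by NRF2 or AP-1. RefSeq promoter windows (GRCm38.p6) were matched by symbol for 8 of the 10 genes, Txnrd1 with 3 start sites, which gave 10 windows. The 250 bases before each start were searched on both strands for TGACNNNGC, the core of the antioxidant response element, and for TGAGTCA, a motif of AP-1 and related factors; a TGACTCA followed by GC would match both. TGACNNNGC lay in 4 of the 10 windows, those of Gclm, Nfe2l2 and Sod1 and 1 window of Txnrd1, against 10.2% of all 32851 RefSeq windows. TGAGTCA lay in the Srxn1 window at 2 positions, and 4.46% of all windows hold it. The 3 windows follow, 5′ to 3′ on the gene's strand with the matched letters in capitals, for Srxn1 (chr2:152105274-152105523, plus strand), Gclm (chr3:122245307-122245556, plus strand) and Nfe2l2 (chr2:75704664-75704913, minus strand). A match describes letters only.
Srxn1: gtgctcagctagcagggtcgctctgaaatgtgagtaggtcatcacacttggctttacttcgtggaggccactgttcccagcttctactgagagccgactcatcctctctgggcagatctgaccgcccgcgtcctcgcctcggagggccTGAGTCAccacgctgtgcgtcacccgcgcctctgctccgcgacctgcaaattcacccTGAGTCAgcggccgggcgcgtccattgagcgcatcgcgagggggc
Gclm: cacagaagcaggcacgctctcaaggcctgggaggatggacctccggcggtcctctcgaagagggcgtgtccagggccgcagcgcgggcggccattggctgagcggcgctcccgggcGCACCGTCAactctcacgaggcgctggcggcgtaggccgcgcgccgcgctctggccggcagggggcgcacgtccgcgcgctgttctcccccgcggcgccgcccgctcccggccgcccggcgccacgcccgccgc
Nfe2l2: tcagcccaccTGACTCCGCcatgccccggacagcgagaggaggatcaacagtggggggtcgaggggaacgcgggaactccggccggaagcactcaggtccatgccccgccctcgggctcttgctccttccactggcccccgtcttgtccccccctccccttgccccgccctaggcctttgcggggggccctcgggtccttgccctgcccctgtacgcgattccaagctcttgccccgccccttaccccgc

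Tissue libraries held 10194437 to 25139406 counts and culture libraries 52189025 to 78273121. Several libraries stood apart in cell type markers, and this bears on all culture results below. The untreated libraries, labelled glia, had summed neuron markers of 6990.2 CPM (counts scaled to the library total) in hippocampal and 7429.5 CPM in cortical glia, where the other culture libraries had 232 to 324 CPM. Their summed oligodendrocyte markers were 9562 and 8024 CPM, against 179 to 482 CPM elsewhere. Ttr, a choroid plexus gene, had 6 counts in the hippocampal amyloid beta control against 278011 in the untreated library of that region. The endothelial gene Cldn5 had 0 counts in the 4 libraries with amyloid beta, against 2424 in hippocampal and 1853 in cortical untreated libraries. The hemoglobin gene Hbb-bs likewise had 0 counts in those 4, against 4121 and 4941. These values go against the label of cultured glia for the untreated libraries, so each amyloid beta ratio compares libraries that differ in cell content as well as in treatment, and the effects of the 2 cannot be told apart. The cortical N+F library had 16390 CPM of mural and fibroblast markers, against 1692 CPM in the cortical amyloid beta control. Of the delivered genes, Nr4a2 measured 488 CPM with N+F against 3.35 CPM in the amyloid beta control of hippocampal glia, and 36.9 against 5.14 CPM in cortical glia. Foxa2 had 8482 counts with N+F in hippocampal glia and 1059 in cortical glia, against 0 counts in the amyloid beta control of both. In bulk libraries fewer cells of a type and less RNA per cell cannot be told apart.

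**Figure D1:**
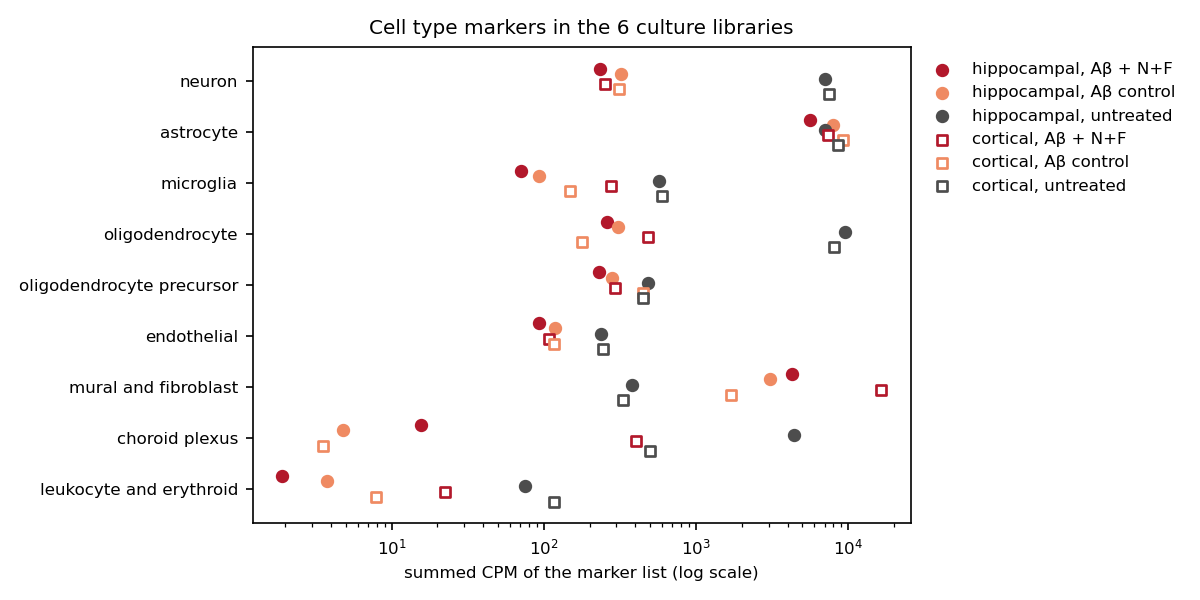
Summed CPM (log axis) of 9 cell type marker lists in the 6 culture libraries; filled circles are hippocampal and open squares cortical glia, coloured by condition, with 1 library per point. Untreated libraries sit far to the right for neuron and oligodendrocyte markers, and the cortical N+F library sits at 16390 CPM for mural and fibroblast markers.

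The amyloid beta comparison of the cultures set glia exposed to amyloid beta against the libraries called untreated. Most NRF2-driven members were much higher with amyloid beta in both regions, led by the heme-degrading enzyme Hmox1, by Nfe2l2 itself and by the thioredoxin reductase Txnrd1. The superoxide dismutases were higher by less than 2-fold in both regions, and Slc7a11 went opposite ways in the regions. A gene was counted as different when it reached a 2-fold ratio in CPM + 1 and 1 CPM in a library of the pair. By that rule 8 of the 10 members were higher in hippocampal glia (21.0% of all genes) and none lower (25.6%). In cortical glia 6 were higher (19.8%) and 1 lower (25.4%). The 6 higher in both regions (16.6% of all genes) were Hmox1, Nqo1, Gclc, Gclm, Txnrd1 and Nfe2l2. None was lower in both regions (21.5% of all genes). The median log2 ratio of the 10 was 2.31 in hippocampal and 1.14 in cortical glia, where the medians of all genes were -0.03 and -0.01.

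Nfe2l2 measured 669 CPM in the amyloid beta control against 20.1 CPM in the library called untreated for hippocampal glia, and 515 against 16.8 CPM for cortical glia. These are ratios of 33.3 (95% counting interval 31.6 to 35.2) and 30.6 (28.6 to 32.8), so the regions lay close together for the transcription factor. Such intervals cover counting error only, since each value is a single library. Hmox1, which opens the heme ring and releases carbon monoxide, iron and biliverdin, measured 663 against 4.10 CPM in hippocampal glia and 279 against 4.18 CPM in cortical glia. Its ratios of 162 (144 to 183) and 66.9 (58.5 to 76.8) were the highest of the set, and the untreated levels of the regions were within counting error of each other.

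Txnrd1, which keeps thioredoxin reduced, measured 821 against 54.2 CPM in hippocampal and 323 against 49.8 CPM in cortical glia, ratios of 15.2 (14.7 to 15.7) and 6.49 (6.23 to 6.76). The glutathione-synthesis pair differed in size: Gclm, the modifier subunit of glutamate-cysteine ligase, was 8.07-fold (7.67 to 8.50) and 3.44-fold (3.24 to 3.67) higher. Gclc, the catalytic subunit, was 2.69-fold (2.60 to 2.78) and 2.07-fold (1.99 to 2.17) higher. Both subunits thus had the higher ratio in hippocampal glia. Nqo1, a quinone reductase, measured 28.3 against 6.19 CPM in hippocampal and 9.47 against 3.45 CPM in cortical glia.

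The regions parted most in Srxn1 and Slc7a11. Srxn1, the sulfiredoxin that repairs overoxidised peroxiredoxins, measured 463 against 75.7 CPM in hippocampal glia, a ratio of 6.11 (5.93 to 6.29), but 109 against 87.1 CPM in cortical glia, a ratio of 1.26 (1.21 to 1.30). Slc7a11 encodes the cystine importer subunit xCT. It measured 131 against 57.7 CPM in hippocampal glia and 26.8 against 68.9 CPM in cortical glia, with ratios of 2.26 (2.18 to 2.35) in hippocampal and 0.389 (0.366 to 0.412) in cortical glia. It was the member that went 2-fold opposite ways in the regions, as did 0.124% of all genes, and 1 member against 6.36% of all genes had opposite signs with both counting intervals off 1. Slc3a2, the heavy chain that pairs with xCT at the membrane, was higher with amyloid beta in both, with log2 ratios of 3.11 and 1.82. Sod1 had ratios of 1.20 (1.17 to 1.23) and 1.21 (1.18 to 1.24), and Sod2 of 1.56 (1.52 to 1.60) and 1.48 (1.44 to 1.52).

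An edgeR quasi-likelihood fit took region and condition as additive terms. Its spread is how far the differences between conditions disagree between the 2 regions, and it holds no replicate error. The fit called 5 members higher with amyloid beta (15.9% of all genes) and none lower (17.2%). By edgeR they were Nfe2l2 (adjusted p = 0.00197), Hmox1 (0.00394), Txnrd1 (0.00679), Gclc (0.0154) and Gclm (0.0170). Nqo1 had an adjusted p of 0.0825, Srxn1 0.107 and Slc7a11 0.982 in the same edgeR fit, so that 5 of the 10 did not pass. Many of the marker lists also differed in these pairs of libraries. With amyloid beta, 9 of 9 neuron, 8 of 8 oligodendrocyte, 10 of 10 microglia, 7 of 7 choroid plexus and 7 of 8 endothelial markers were lower in both regions. Oligodendrocyte precursor markers summed to 282 against 486 CPM in hippocampal and 446 against 449.9 CPM in cortical glia, with 4 of 6 lower in each. Summed microglia markers were 93.0 against 574 CPM in hippocampal and 149 against 595 CPM in cortical glia, and summed choroid plexus markers 4.78 against 4375 CPM and 3.56 against 501 CPM. Mural and fibroblast markers were higher in sum, at 3049.8 against 379.6 CPM and 1691.5 against 329.7 CPM. Of that list 3 of 10 were lower in hippocampal and 4 of 10 in cortical glia. Among the lower ones was Rgs5, with log2 ratios of -5.11 and -4.77. Astrocyte markers were near level in sum, at 7945 against 7080.1 CPM and 9222 against 8514.5 CPM, but the list's members went both ways. Gfap, Aqp4, Aldh1l1 and Sox9 had log2 ratios of 2.55, 2.70, 2.82 and 3.13 in hippocampal glia, where Gclm had 2.96 and Srxn1 2.60. Slc1a2 had -2.45 and S100b -4.48 there. The part of these markers in the ratios was not tested.

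**Figure D2:**
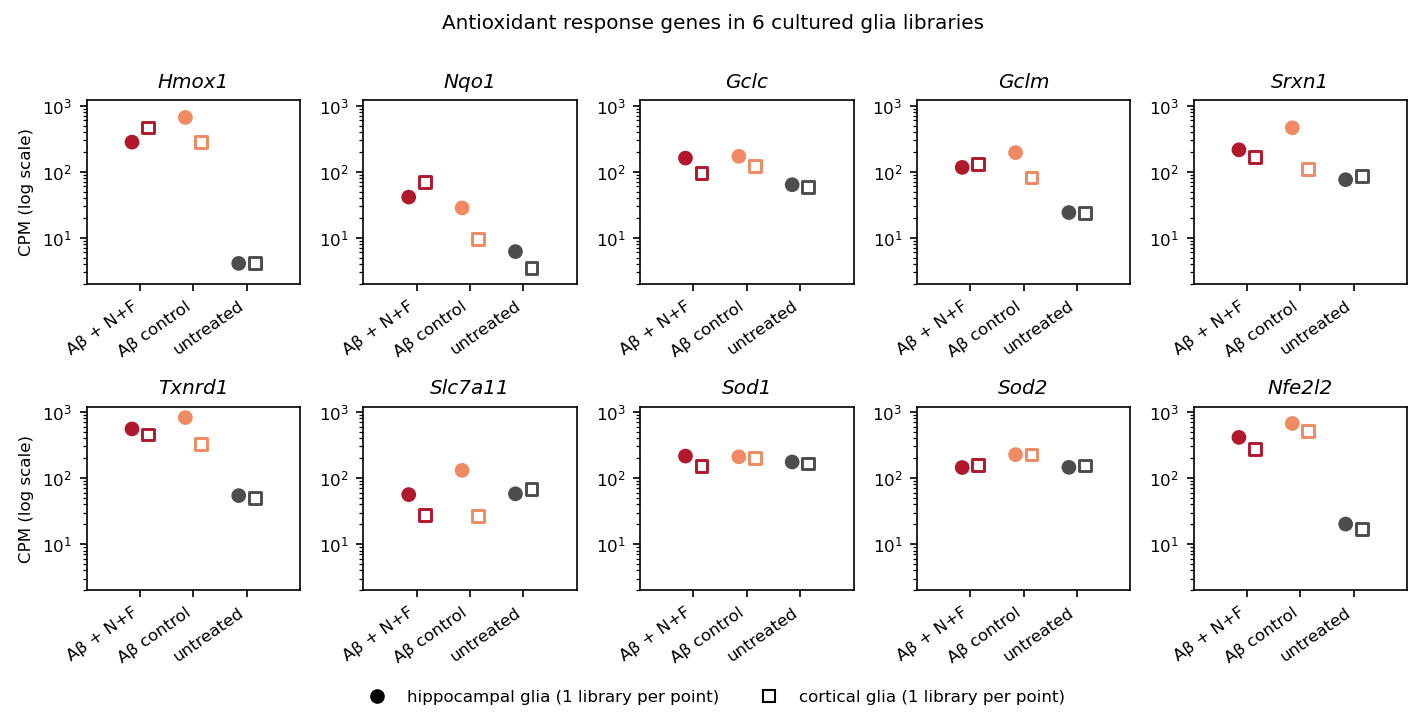
CPM (log axis) of the 10 genes in the 6 culture libraries, by condition; filled circles are hippocampal and open squares cortical glia, 1 library per point. Hmox1, Txnrd1 and Nfe2l2 are far below their other levels in the untreated libraries, Sod1 and Sod2 are nearly level, and the hippocampal amyloid beta control holds the highest value of Hmox1, Gclc, Gclm, Srxn1, Txnrd1, Slc7a11 and Nfe2l2.

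The N+F comparison of the cultures asked what the delivered factors changed in the presence of amyloid beta. It shares the amyloid beta control library with the comparison above, so the values of both are to be read side by side and not as separate evidence. In hippocampal glia most members were lower with N+F, with 8 of 10 ratios below 1 (36.0% of all genes), while 4 of 10 were below 1 in cortical glia (58.9%). There Nqo1, Hmox1, Gclm, Srxn1 and Txnrd1 were higher. Nfe2l2, Sod2 and Gclc were below 1 in both regions (22.1% of all genes), and 5 members were below 1 in hippocampal and above 1 in cortical glia (13.8%). No member reached 2-fold the same way in both regions, where 2.07% of all genes were higher and 0.119% lower. In hippocampal glia 3 of 10 were at least 2-fold lower (0.767% of all genes) and none higher (5.60%). In cortical glia 1 was at least 2-fold higher (12.9%) and none lower (15.1%). The medians over the 10 were -0.67 and 0.27 on the log2 scale, against 0.12 and -0.18 for all genes.

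Hmox1, Srxn1, Gclm and Txnrd1 had opposite signs in the regions with N+F. Hmox1 measured 280.5 CPM with N+F against 663 CPM in the hippocampal amyloid beta control, and 467 against 279 CPM in cortical glia, ratios of 0.423 (0.416 to 0.431) and 1.67 (1.64 to 1.70). Srxn1 measured 215 against 463 CPM and 169 against 109 CPM, ratios of 0.464 (0.455 to 0.473) and 1.54. Gclm measured 116 against 195 CPM and 130.3 against 81.6 CPM, ratios of 0.598 (0.581 to 0.615) and 1.60 (1.54 to 1.65). All 3 were at least 1.5-fold lower in hippocampal and 1.5-fold higher in cortical glia, as were 1.10% of all genes. None reached 2-fold opposite ways in the regions (0.749% of all genes). Txnrd1 stood at 553 against 821 CPM and 457 against 323 CPM, ratios of 0.673 (0.665 to 0.683) and 1.42 (1.39 to 1.44). With Sod1, 5 of the 10 members had opposite signs in the regions with both counting intervals off 1, as did 36.3% of all genes.

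Other members did not follow that pattern. Nqo1 was higher with N+F in both regions, at 41.3 against 28.3 CPM in hippocampal glia and 70.4 against 9.47 CPM in cortical glia, ratios of 1.46 (1.38 to 1.55) and 7.43 (6.82 to 8.11). Slc7a11 was lower in hippocampal glia at 56.1 against 131 CPM, a ratio of 0.429 (0.413 to 0.447), and within counting error in cortical glia at 27.7 against 26.8 CPM. Its partner Slc3a2 had log2 ratios of -1.29 and -0.62. Gclc differed little, with ratios of 0.940 (0.915 to 0.965) and 0.796 (0.771 to 0.822).

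Nfe2l2 measured 412 against 669 CPM in hippocampal glia and 276 against 515 CPM in cortical glia, ratios of 0.616 (0.606 to 0.625) and 0.536 (0.527 to 0.546). Sod2 measured 144 against 226 CPM and 159 against 227 CPM, ratios of 0.639 (0.623 to 0.656) and 0.698 (0.681 to 0.715). For these the regions lay on the same side and near each other, and Nfe2l2 was the member at least 1.5-fold lower in both (1.15% of all genes). Sod1 had ratios of 1.02 (1.00 to 1.05) and 0.754 (0.735 to 0.773).

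Another scaling shifted these ratios. TMM factors in place of library totals moved the median of all genes by -0.12 in hippocampal and 0.16 in cortical glia on the log2 scale. Set against the median of all genes, Hmox1 had log2 differences of -1.36 and 0.90, Srxn1 -1.22 and 0.78, Gclm -0.86 and 0.82, Txnrd1 -0.69 and 0.66 and Nqo1 0.41 and 2.93. Nfe2l2 then had -0.82 and -0.74, Sod2 -0.76 and -0.36, Slc7a11 -1.32 and 0.20, Gclc -0.21 and -0.17, and Sod1 -0.08 and -0.25. Sod1 in hippocampal glia was the member whose sign flipped.

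The additive edgeR fit called no member and no other gene in this comparison (0.00% of all genes in either direction). Without adjustment 823 genes were under 0.05 and higher (4.91%) and 333 lower (1.99%). Nqo1 was among the first (edgeR adjusted p = 0.708) and Nfe2l2 among the second (edgeR adjusted p = 0.691). Beside the cortical ratios stood the mural and fibroblast markers: 8 of 10 were higher with N+F, among them Col1a1 at 2894 against 47.0 CPM and Lum, which had 0 counts in the amyloid beta control. Pdgfrb stood at 42.2 against 42.5 CPM. In hippocampal glia the summed level was 4298.5 against 3049.8 CPM. Oligodendrocyte markers summed to 482 against 179 CPM in cortical glia, with 7 of 8 higher and Mbp at 179.5 against 0.873 CPM, and to 261 against 306 CPM in hippocampal glia, with 7 of 8 lower. In cortical glia the endothelial gene Cdh5 stood at 49.9 against 0.181 CPM and the choroid plexus gene Aqp1 at 404.5 against 0.626 CPM. By median log2 ratio their lists did not move as far as these genes did. Endothelial markers summed to 108 against 116 CPM there, with 2 of 8 lower and a median log2 ratio of 0.46. Slco1a4, 1 of the lower genes, stood at 34.4 against 107.7 CPM and made up much of both sums. Of the choroid plexus markers 4 of 7 were lower, with a median log2 ratio of -0.03. Astrocyte markers were lower in sum in both regions, at 5639 against 7945 CPM in hippocampal glia, with 8 of 9 lower, and at 7332 against 9222 CPM in cortical glia, with 6 of 9 lower. Their median log2 ratios were -0.45 and -0.50, beside medians of -0.67 and 0.27 for the 10 members. Microglia markers summed to 278 against 149 CPM in cortical and 70.8 against 93.0 CPM in hippocampal glia. The part of these markers, and of the higher N+F transgene level in hippocampal glia, in the regional difference was not tested.

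**Figure D3:**
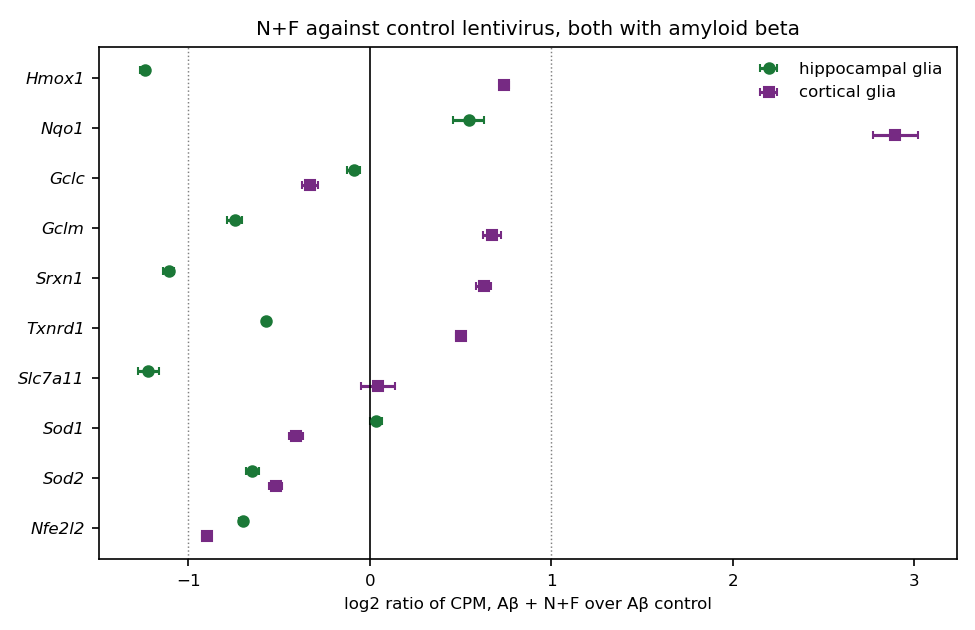
Log2 ratio of CPM (N+F over control lentivirus, both with amyloid beta) for the 10 genes in hippocampal (green circles) and cortical glia (purple squares); bars are 95% counting intervals, and dotted lines mark 2-fold. Hmox1, Gclm, Srxn1 and Txnrd1 lie left of 0 in hippocampal and right of 0 in cortical glia, while Nfe2l2 and Sod2 lie left of 0 in both.

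Seen by region, the members were most unequal in the amyloid beta control. There 6 of 10 were at least 2-fold higher in hippocampal than in cortical glia (4.17% of all genes): Slc7a11 (4.88-fold, 4.63 to 5.14), Srxn1 (4.23-fold, 4.12 to 4.34), Nqo1 (2.99-fold, 2.73 to 3.29), Txnrd1 (2.54-fold, 2.50 to 2.58), Gclm (2.38-fold, 2.31 to 2.46) and Hmox1 (2.37-fold, 2.33 to 2.41). None was 2-fold lower (2.13% of all genes). With N+F no member reached 2-fold on CPM + 1 either way (17.3% of all genes higher and 7.06% lower in hippocampal glia), and log2 differences ran from -0.75 for Nqo1 to 0.99 for Slc7a11. Untreated libraries also had no member at 2-fold (3.17% and 2.30% of all genes), with a range of -0.25 to 0.69. The spread between regions thus lay mainly in the amyloid beta control libraries, of which there was 1 per region.

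Txnrd1 and Nfe2l2 had several lines in the culture table, 4 and 2, whose transcripts are not named there. In Txnrd1 the largest line held 73.3% of the gene's counts in the cortical N+F library against 87.4% in its amyloid beta control, and 91.2% against 90.6% in hippocampal glia. A smaller line held 25.1% against 11.2% in cortical glia and measured 115 against 36.3 CPM, a log2 ratio of 1.63, while the largest line had 335 against 282 CPM and 0.25. In hippocampal glia the same lines had log2 ratios of -0.73 and -0.56. The cortical Txnrd1 difference therefore lay more in the smaller line. Nfe2l2 had at least 98.7% of its counts in a single line in every library. How reads were shared between lines is not stated.

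In the 3xTg hippocampus the question was what N+F changed in vivo. No member passed the edgeR test at an adjusted p of 0.05, and 0.110% of 15523 tested genes did; all 10 members were tested, and DESeq2 called 0 of them as well. The median log2 fold change of the 10 was -0.01 and that of all genes -0.00, and 6 of 10 were negative (50.8% of all genes). At an unadjusted p under 0.05 there were 3 members, Srxn1, Hmox1 and Sod1 (8.46% of all genes), of which Hmox1 was lower (4.36%). In 2 members, Srxn1 and Sod1, every N+F library lay above every control, and in 8.11% of all genes the groups did not overlap.

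Srxn1 measured 55.2, 55.1, 57.6 and 53.0 TMM-scaled CPM in the N+F libraries, against 45.2, 39.5 and 45.5 CPM in the controls. The groups did not overlap, and the means were 55.2 ± 1.87 CPM with N+F and 43.4 ± 3.37 CPM in controls (SD, n = 4 and 3). The log2 fold change was 0.35 ± 0.11 (SE, edgeR adjusted p = 0.381). Sod1 measured 878, 916, 1083 and 873 CPM with N+F, against 673, 775 and 798 CPM in controls. Again the N+F libraries were all higher, but the log2 fold change of 0.32 ± 0.14 had an edgeR adjusted p of 0.560.

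Hmox1 was at 1.00, 5.37, 2.07 and 2.72 CPM with N+F, against 4.40, 6.93 and 5.77 CPM in controls. It rested on 10 to 60 counts per N+F library and 73 to 123 per control. N+F library 2 lay among the controls and the other 3 below them. The log2 fold change was -1.01 ± 0.43 (edgeR adjusted p = 0.547). Microglia markers summed to 333 to 476 CPM with N+F against 478 to 534 CPM in controls, with 8 of 10 lower, and mural and fibroblast markers to 64.4 to 90.4 against 86.8 to 444 CPM, with 10 of 10 lower. Fold changes were also negative for 8 of 8 endothelial, 7 of 7 choroid plexus, 6 of 6 oligodendrocyte precursor, 7 of 8 oligodendrocyte and 7 of 9 astrocyte markers. For neuron markers 5 of 9 were negative, and for leukocyte and erythroid markers 3 of 6 tested. Choroid plexus markers summed to 164 to 3939 CPM among the N+F libraries and to 1135 to 2858 CPM in controls. The part of these markers in the Hmox1 values was not tested.

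Gclm measured 11.2, 12.3, 11.3 and 12.2 CPM with N+F, against 12.2, 16.6 and 13.2 CPM in controls (log2 fold change -0.25 ± 0.16, edgeR adjusted p = 0.755). Its exons overlap those of 2 other annotated genes, so its counts may hold shared reads. The other 6 had smaller fold changes, from -0.06 for Slc7a11 to 0.07 for Sod2, with edgeR adjusted p from 0.940 to 0.997. Slc7a11 averaged 55.5 ± 8.32 CPM with N+F and 58.1 ± 13.9 CPM in controls. Nfe2l2 averaged 9.02 ± 1.57 CPM with N+F and 9.05 ± 0.714 CPM in controls (SD, n = 4 and 3), and Nqo1 3.69 ± 0.772 against 3.82 ± 0.889 CPM. Gclc averaged 18.2 ± 1.49 CPM with N+F and 18.0 ± 1.01 CPM in controls, Txnrd1 26.9 ± 1.97 against 27.2 ± 4.95 CPM and Sod2 81.6 ± 5.81 against 77.9 ± 10.7 CPM. In Gclm and these 6 genes the groups overlapped. The delivered Nr4a2 itself was at 27.0 ± 4.85 CPM with N+F and 31.5 ± 12.7 CPM in controls (log2 fold change -0.22 ± 0.24, edgeR adjusted p = 0.872). Foxa2, too low to be tested, had 26, 5, 1 and 6 counts with N+F, against 5, 1 and 1 in controls.

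**Figure D4:**
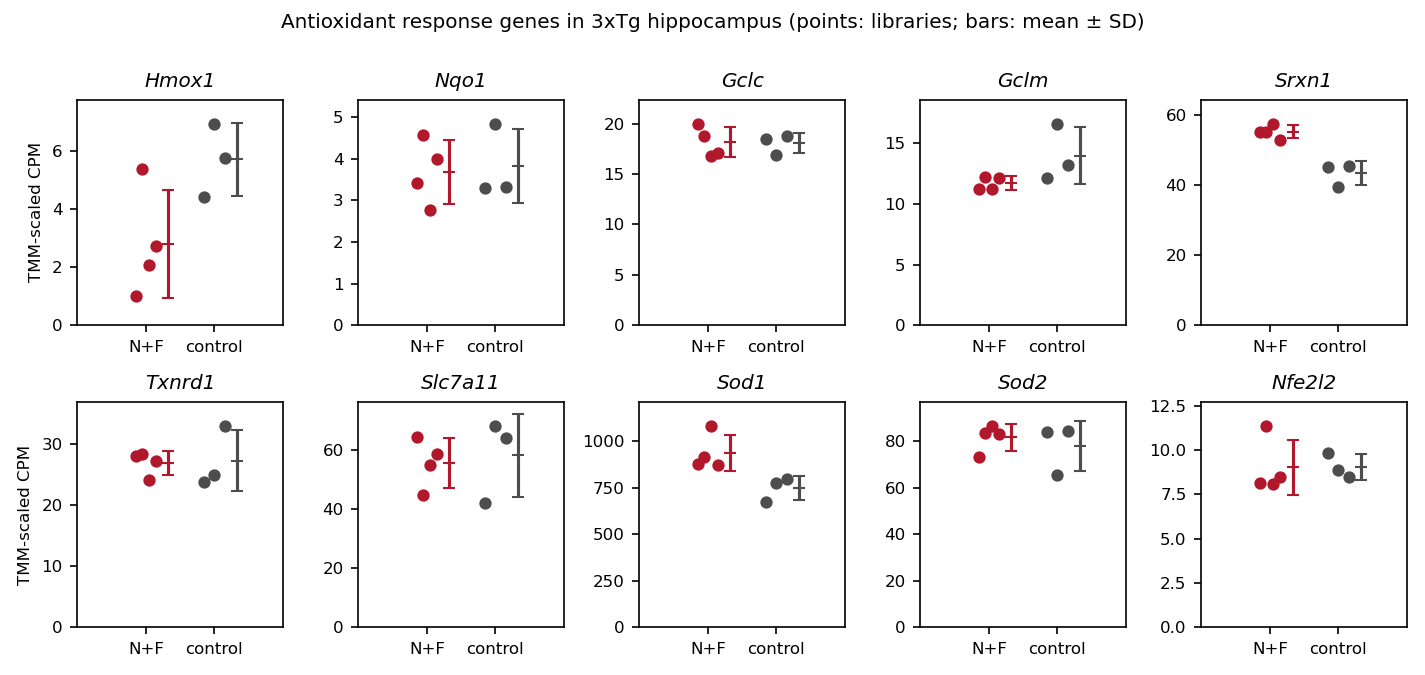
TMM-scaled CPM of the 10 genes in the hippocampus of 3xTg mice, N+F (4 libraries, red) beside control AAV9 (3 libraries, grey); points are libraries and bars the mean ± SD. Srxn1 and Sod1 show no overlap between groups, and in Hmox1 1 N+F library lies among the controls.

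The wider antioxidant system was followed in 60 genes of 5 lists. With amyloid beta 35 of the 60 were at least 2-fold higher in both regions and 3 lower, Bach2, Mgst3 and Glrx2, against the 16.6% and 21.5% of all genes given above. Those higher included 13 of 16 NADPH, heme and quinone enzymes, 9 of 18 glutathione enzymes, 7 of 12 thioredoxin and peroxiredoxin genes, 3 of 3 superoxide and peroxide enzymes and 3 of 11 NRF2 regulators and partners. Of these genes 15 were at least 4-fold higher in both regions. The 4-fold limit served only to choose which genes to name, and no share of all genes was taken at it. The leading 8 were, with log2 ratios in hippocampal and cortical glia, the microsomal glutathione transferase Mgst1 (4.83 and 4.99), the epoxide hydrolase Ephx1 (4.63 and 4.94), the peroxiredoxin Prdx6 (4.51 and 4.14), the secreted glutathione peroxidase Gpx3 (4.03 and 4.02), Osgin1 (4.63 and 3.92), the extracellular superoxide dismutase Sod3 (3.87 and 3.76), Gpx8 (3.59 and 4.28) and the small MAF gene Maff (4.27 and 3.50). Mgst3 was the gene at least 4-fold lower in both (-2.56 and -2.99).

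Among the regulators of NRF2, Keap1 measured 86.7 CPM in the amyloid beta control against 78.3 CPM in the untreated library for hippocampal glia and 67.9 against 74.8 CPM in cortical glia. Bach1, a repressor that competes for the same elements and is a known regulator of Hmox1, was higher in both regions (log2 ratios of 1.93 and 1.94). With N+F the 11 regulators and partners showed no single pattern. In 4 of them, Bach1, Sqstm1, Nfe2l1 and Mafg, the ratio was below 1 in hippocampal and above 1 in cortical glia (13.8% of all genes). The log2 ratios were -0.50 and 0.56 for Bach1, while Mafg was within counting error in both regions. In another 4, Bach2, Maff, Mafk and Nfe2l3, the ratio was above 1 in both regions (3676 of 13479 genes), with 0.73 and 1.22 for Mafk. The ubiquitin ligase genes Cul3 and Rbx1 were above 1 in hippocampal and below 1 in cortical glia (4956 of 13479 genes). Keap1 was below 1 in both (22.1% of all genes), with -0.04 and -0.34. In hippocampal glia Rbx1 and Keap1 were within counting error.

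With N+F no gene of the 5 lists reached 4-fold in both regions. On CPM + 1, 1 was 2-fold higher in both (2.07% of all genes), the NRF2 relative Nfe2l3 (1.41 and 1.64), named after its values were seen. Bach2 had CPM ratios of 2.32 and 2.31, but log2 ratios of CPM + 1 of 1.07 and 0.97. In hippocampal glia 4 of the 60 were 2-fold higher (5.60% of all genes) and 2 lower (0.767%), the lower ones being Gpx1 and Slc3a2. In cortical glia 9 were higher (12.9%) and 3 lower (15.1%). Over the 60 genes the median log2 ratio was -0.03 in hippocampal and 0.12 in cortical glia, against 0.115 and -0.18 for all genes. In tissue 59 of the 60 were tested and none passed (4 at an unadjusted p under 0.05, against 8.46% of all genes). The 3 of smallest p in each direction were Gpx3 (log2 fold change 0.79 ± 0.19, edgeR adjusted p = 0.221), Prdx4 (0.42 ± 0.18, 0.529) and Mgst3 (0.31 ± 0.13, 0.549), and Slc3a2 (-0.24 ± 0.13, 0.662), Me1 (-0.26 ± 0.15, 0.709) and Gss (-0.31 ± 0.18, 0.715). Gpx3 measured 93.0, 67.5, 80.3 and 86.2 CPM with N+F, against 56.4, 53.1 and 32.6 CPM in controls, with no overlap, and DESeq2 called it (adjusted p = 0.0165).

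**Figure D5:**
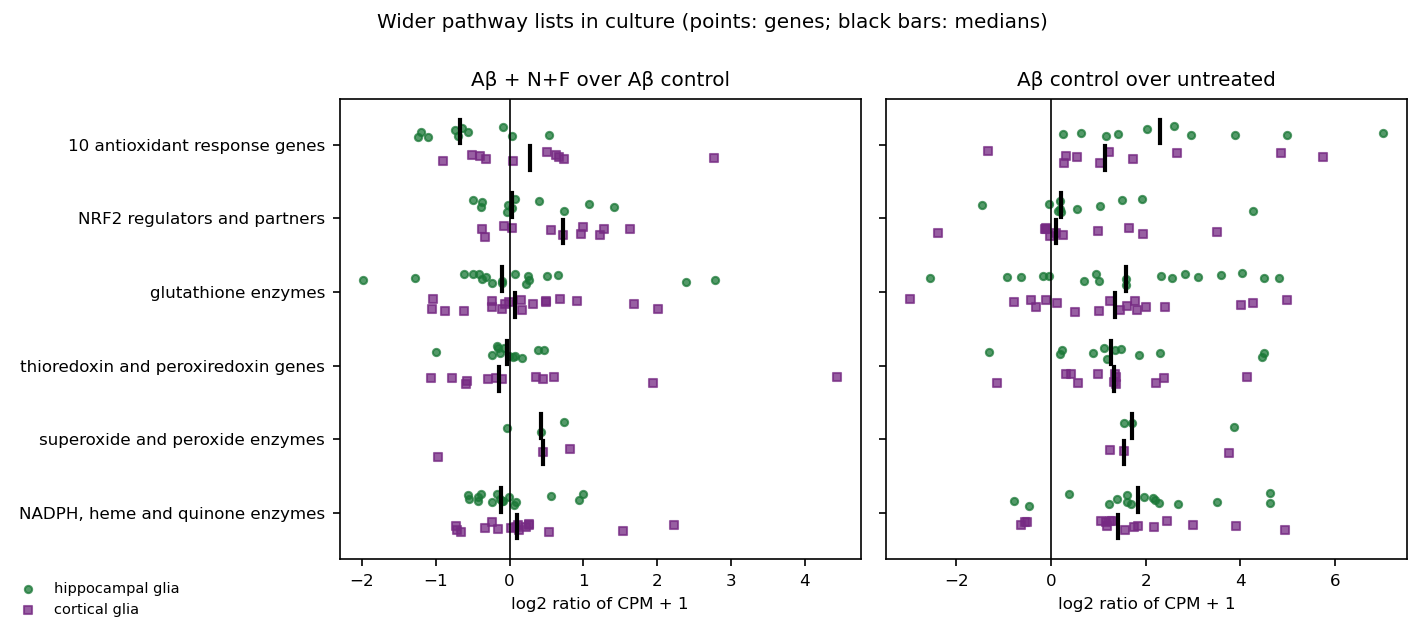
Log2 ratio of CPM + 1 for the 10 genes and the 5 wider lists in hippocampal (green circles) and cortical glia (purple squares), with black bars at the medians; left, N+F over the amyloid beta control, right, the amyloid beta control over untreated. Medians at right lie above 0 for every list in both regions, and at left the 10 genes have medians of -0.67 and 0.27.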

How the data were processed

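RNA of 7 hippocampus and 6 glia culture libraries was sequenced after Trizol extraction and SMARTER library preparation, per the labels' protocols. The authors deposited raw counts per gene symbol; TopHat, HISAT2 and edgeR and the human build hg19 are named in the submitters' processing notes without role or version, although the symbols are mouse, so no coordinates were taken from the count tables. The strand setting of counting is not stated; exons of Gclm overlap those of 2 other GENCODE genes, so its reads may be shared. Lines of a symbol were summed (44 repeated lines in tissue, 12238 in culture); 0 sample columns were unused.

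Tissue was tested with edgeR 4.0.16 in R 4.3.3 (filterByExpr, TMM, quasi-likelihood test, Benjamini-Hochberg over 15523 genes). Culture values are CPM of the library total with log2 ratios of CPM + 1; counting intervals are exact conditional binomial ones at 95%. DESeq2 1.42.0, other scalings, pseudocounts, filters and left-out libraries were alternatives. Fits were tested on simulated data. No pair of tissue replicates was a duplicate (chi-square of 15.0 to 56.1 per gene). The labels do not state separate animals, and p-values then cover only variation among these libraries, possibly technical. The members and lists were chosen with earlier results of these data known. All 10 members are named. From the 5 lists, culture names went to the genes of at least 4-fold in both regions, at most 8 per direction, and tissue names to those past the test or else the 3 of smallest p per direction; other names were chosen after values were seen.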

Additional observations from a re-analysis of the deposited data

Results flagged for a closer look

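In the tissue N+F group Nfe2l2 had a library far from the other 3, with 11.4 CPM in N+F library 2 against 8.10 to 8.48 CPM in the rest; that gap was 0.884 of the group's range. The threshold it passed is one that chance passes in about 1 in 20 groups, and the N+F libraries were looked at for all 10 genes. In the amyloid beta comparison of the cultures Slc7a11 went opposite ways in the regions, with a hippocampal minus cortical difference of 2.50 between the log2 ratios. With N+F the same kind of difference was -1.98 for Hmox1, -1.73 for Srxn1, -1.41 for Gclm, -1.07 for Txnrd1 and 0.44 for Sod1, each with opposite signs in the regions and counting intervals off 1. For Sod1 this held only by library totals: with TMM scaling its log2 ratios were -0.10 in hippocampal and -0.24 in cortical glia. Opposite signs of this kind were seen in 6.36% of all genes with amyloid beta and in 36.3% with N+F. With 1 library per group these regional differences were not tested.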

How the results depend on the processing

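No member passed in tissue under any of the 12 alternatives, where the lowest adjusted p was 0.231. Of all genes edgeR called 17, against 147 with DESeq2, 29 without the count filter, 0 with the replicate block and 0 to 29 with a library left out; of these, leaving out any N+F library gave 0, control 2 gave 3, control 3 gave 1 and control 1 gave 29. DESeq2 called 1 gene of the wider lists and edgeR 0. With a library left out, log2 fold changes of -0.16 to 0.16 (Nqo1), -0.039 to 0.050 (Gclc), -0.11 to 0.14 (Txnrd1), -0.26 to 0.068 (Slc7a11), -0.043 to 0.12 (Sod2) and -0.14 to 0.051 (Nfe2l2) changed sign, while Hmox1 kept -1.53 to -0.74 and Srxn1 0.28 to 0.38. Replicate numbers did not pair the tissue libraries: same-numbered deviations correlated at -0.00, -0.08 and 0.13, and with the block Nfe2l2 had 0.0065. At 1.5-fold in place of 2-fold, N+F counts in hippocampal glia were 6 members lower and, in the wider lists, 9 higher and 4 lower, where 14.2% of all genes were higher and 3.87% lower. In cortical glia they were 4 members higher and 1 lower, with 16 and 11 in the lists (21.4% and 29.9% of all genes). In both regions they were 1 member lower, with 5 list genes higher and 2 lower (5.19% and 1.15%). List genes lower with amyloid beta were then 6 in hippocampal and 5 in cortical glia (34.4% and 34.3%). List genes at least 2-fold lower with N+F in cortical glia were 3, but 0 with TMM and 1 with a pseudocount of 5. Those higher with N+F in both regions were 1, but 2 with TMM or a pseudocount of 0.1 and 0 in the additive edgeR fit. Reading the hippocampal pair alone, because of the fibroblast markers of the cortical N+F library, was a choice made after seeing the data. It repeats the hippocampal counts given above, 3 members lower and 4 list genes higher and 2 lower, and is no separate check. Causes were not tested. Culture counts have no replicate error.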
